A study of Caenorhabditis elegans with 4 samples.

Results

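The genes described here encode proteins of the mitochondrial respiratory chain and ATP synthase in Caenorhabditis elegans. They were selected by gene symbol alone: symbols that start with nuo-, sdha-, sdhb-, sdhd-, ucr-, cox- or atp-, together with isp-1, cyc-1, mev-1, gas-1 and lpd-5. This gave 39 of the 20392 genes in the deposited tables. Complex I is represented by 8 genes, complex II by 5, complex III by 7, complex IV by 7 subunits and 7 assembly factors, and complex V by 5. All 39 are nuclear genes, with 12 on chromosome I, 10 on III, 5 each on II and IV, 4 on X and 3 on V (WBcel235 annotation). The symbols do not capture every nuclear gene of the chain, and no gene of the mitochondrial genome matched in the symbol list used here. Both are therefore described below for comparison. The mitochondrial ATP synthase gene ATP6 had no symbol in that list. Its WormBase name may start with atp-, but it was not counted among the 39.

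The RIP-seq experiment asked which mRNAs are recovered with CeLIN41, the TRIM-NHL RNA-binding protein of the worm. All 4 libraries came from whole young adults of 1 strain, which carries the lin-41 allele rrr3 and the transgene rrrSi367. This transgene, on chromosome II, places FLAG-GFP-TEV-LIN-41 under the lin-41 promoter with the complete lin-41 3′-UTR and an unc-119(+) marker, and it rescues the mutant. Each of the 2 biological replicates, grown in different weeks, gave an input library from the lysate and an IP library from anti-FLAG beads. Between 33455857 and 40743247 counts were assigned to genes per library. A mock IP was not analysed here, so RNA held by the beads or by the tags cannot be told apart from RNA held by CeLIN41.

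The respiratory chain passes electrons from NADH and succinate to oxygen through complexes I to IV, and complex V uses the resulting proton gradient to make ATP. Most subunits are encoded in the nucleus, translated in the cytosol and imported. A small core is encoded by mitochondrial DNA and translated inside the organelle. Complex IV, cytochrome c oxidase, also needs dedicated assembly factors that deliver copper, make heme A or insert its core subunits, and that are not part of the finished enzyme.

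The 39 genes divided along this line between structural subunits and assembly factors. All 32 genes for subunits of complexes I to V were lower in the IP than in the input, with a median log2 fold change of -0.99, or 1.98-fold. None of the 7 assembly factors of complex IV was lower, and 5 of them were higher, up to 4.54-fold for the copper chaperone gene cox-17. The remaining 2, cox-10 and cox-15, did not pass the test. These calls are from edgeR's quasi-likelihood test with TMM scaling and the replicate as a block, at an adjusted p threshold of 0.05 over all 14029 genes tested. All 39 genes were among those tested. Of the tested genes, 35.4% were lower and 32.9% were higher in the IP, and their median log2 fold change was -0.14. Over all 39 genes, 32 were lower, 5 were higher and the median log2 fold change was -0.90.

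Counting intervals are narrow for these genes, since the least counted value is 203 counts, for cox-10 in IP replicate 2. The error that matters is the spread between the 2 replicates. Levels are given below as TMM-scaled CPM (counts per TMM-adjusted library total, in the usual CPM unit). In CPM, both IP libraries were below both inputs for 33 of the 39 genes and above both for 6, so no gene had overlapping groups. Among all tested genes these shares were 43.6% below and 37.6% above. The 39 genes took 1.59% of all counts in Input replicate 1 and 1.54% in Input replicate 2, compared with 0.496% and 0.386% in the IPs.

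**Figure D1:**
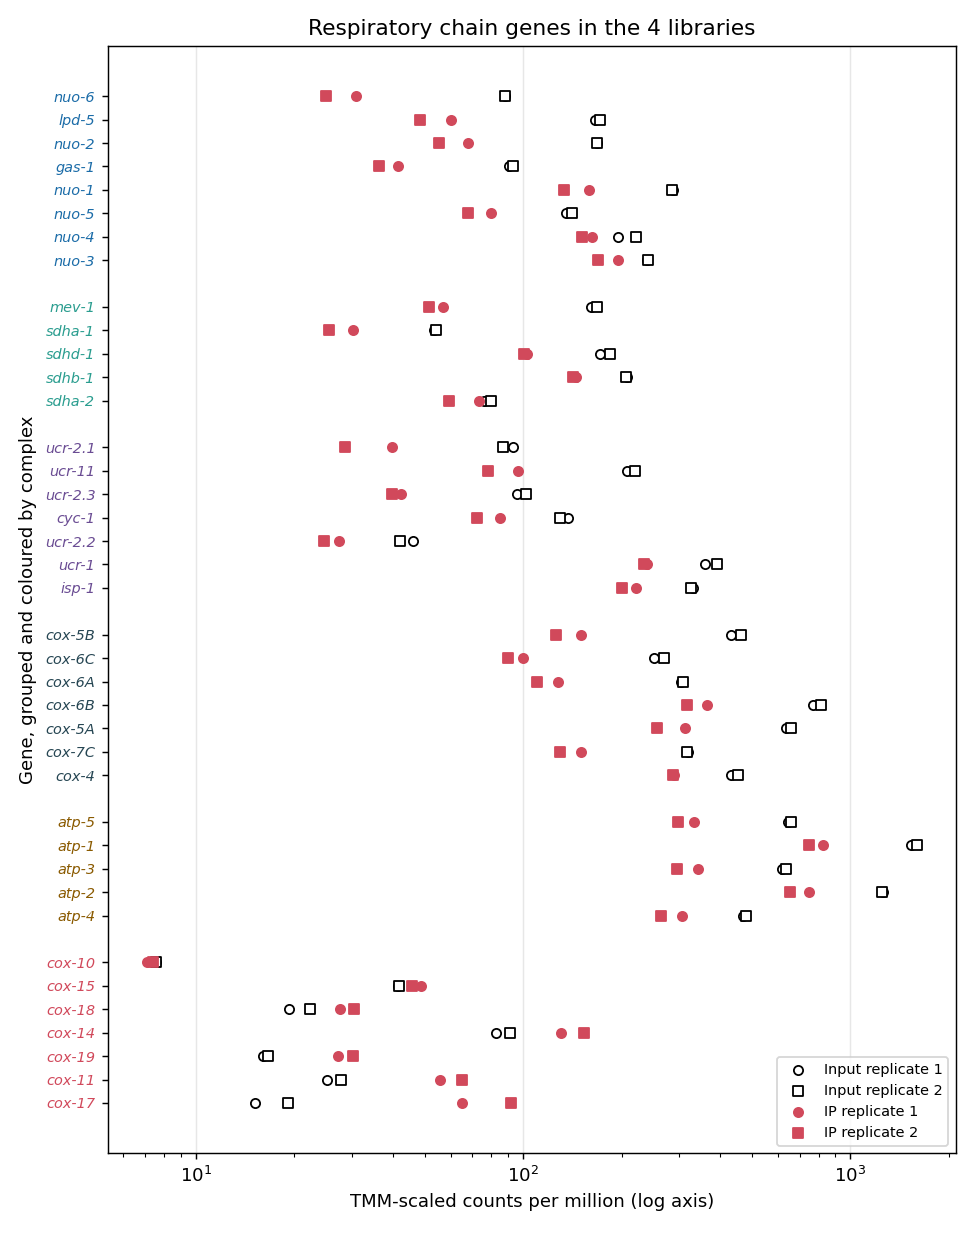
TMM-scaled CPM (log axis) of the 39 genes in each of the 4 libraries, with open symbols for inputs, filled symbols for IPs, circles for replicate 1 and squares for replicate 2. The filled symbols of all 32 subunit genes lie to the left of the open ones, and those of 6 of the 7 assembly factors at the bottom lie to the right.

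The NADH dehydrogenase of complex I was represented by gas-1, nuo-1 to nuo-6 and lpd-5. All 8 genes were lower in the IP, with log2 fold changes from -1.66 to -0.40 and a median of -1.11. The gene nuo-6 (WBGene00012166, chromosome I) was the lowest of the complex. Inputs 1 and 2 had 87.9 and 88.0 CPM, compared with 30.8 and 24.9 CPM in the IPs. This is a log2 fold change of -1.66 (standard error, SE, 0.11; adjusted p = 1.4e-54). The gene lpd-5, whose human counterpart is the accessory subunit NDUFS4, was close to it. It went from 166 and 172 CPM to 60.1 and 48.4 CPM, with a log2 fold change of -1.65 (SE 0.11). The SE was obtained by dividing the log2 fold change by the square root of its F value. It rests on a spread pooled over genes and does not measure the spread between the replicates of the single gene.

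The other genes of complex I, among them genes of its catalytic core, were also lower, by less than nuo-6 and lpd-5. The gene gas-1 (WBGene00001520, chromosome X) encodes a core subunit of the arm that passes electrons to ubiquinone. It had 90.5 and 93.4 CPM in the inputs and 41.5 and 36.4 CPM in the IPs, with a log2 fold change of -1.24 (SE 0.10). The gene nuo-1, which encodes the NADH-binding subunit, had 288 and 285 CPM in the inputs and 159 and 133 CPM in the IPs, with a log2 fold change of -0.98 (SE 0.12). The gene nuo-2 was at -1.45 and nuo-5, the homologue of the iron-sulfur subunit NDUFS1, was at -0.90. The smallest changes in the complex belonged to nuo-4 and nuo-3, both at -0.40 (adjusted p = 0.000572 and 0.000944). Neither call held without Input replicate 2, at adjusted p = 0.111 and 0.0641, and that of nuo-3 was also lost without Input replicate 1, at adjusted p = 0.0544.

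Succinate dehydrogenase, complex II, couples the citric acid cycle to the chain. All 5 of its genes were lower in the IP, and they spread from -1.60 to -0.23. The gene mev-1 (WBGene00003225, chromosome III) encodes the cytochrome b large subunit that anchors the enzyme in the membrane. It had 162 and 168 CPM in the inputs and 56.9 and 51.6 CPM in the IPs, with a log2 fold change of -1.60 (SE 0.11, adjusted p = 1.14e-49). The other membrane anchor gene, sdhd-1, was at -0.81, from 172 and 184 CPM to 103 and 101 CPM. The iron-sulfur subunit gene sdhb-1 was at -0.53, from 208 and 206 CPM to 145 and 142 CPM.

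The flavoprotein subunit of complex II has paralogous genes, and these had different values. For sdha-1, 53.4 and 54.2 CPM in the inputs compared with 30.3 and 25.6 CPM in the IPs, a log2 fold change of -0.95 (SE 0.10). For sdha-2, 75.8 and 79.6 CPM compared with 73.3 and 59.3 CPM, a log2 fold change of -0.23 (SE 0.10, adjusted p = 0.0315). Within replicates, the log2 ratio of IP to input was -0.82 and -1.08 for sdha-1, and -0.05 and -0.42 for sdha-2. The values of sdha-1 were thus below those of sdha-2 in each replicate, but this difference was not tested. The call of sdha-2 was the weakest of the 32: it was lost with no replicate block (adjusted p = 0.124), with DESeq2 (0.365), with RLE size factors (0.154) and without Input replicate 1 (0.148), Input replicate 2 (0.302) or IP replicate 2 (0.392). The sources used here do not give the rule for reads that match several paralogs, so the values of sdha-1, sdha-2 and the ucr-2 genes are uncertain to that extent.

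Complex III, the cytochrome bc1 complex, takes electrons from ubiquinol to cytochrome c. All 7 of its genes were lower in the IP, between -1.42 and -0.64 with a median of -0.77. The Rieske iron-sulfur protein gene isp-1 (WBGene00002162, chromosome IV) had 330 and 326 CPM in the inputs and 221 and 201 CPM in the IPs. This is a log2 fold change of -0.64 (SE 0.12, adjusted p = 2.57e-07), the smallest change of the complex. The cytochrome c1 gene cyc-1 had 137 and 129 CPM in the inputs and 84.9 and 72.2 CPM in the IPs, with a log2 fold change of -0.77 (SE 0.10). The core protein gene ucr-1 was at -0.67, from 359 and 393 CPM to 239 and 233 CPM.

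The ucr-2 genes encode paralogs of the second core protein. The gene ucr-2.1 had 93.3 and 87.0 CPM in the inputs and 39.6 and 28.6 CPM in the IPs, and ucr-2.3 had 95.5 and 102 CPM in the inputs and 42.3 and 39.7 CPM in the IPs. Their log2 fold changes were -1.42 and -1.27. The gene ucr-2.2 was less abundant, with 46.0 and 42.2 CPM in the inputs and 27.3 and 24.6 CPM in the IPs, and its log2 fold change of -0.76 (SE 0.11) was smaller. In each replicate, its log2 ratio of -0.75 and -0.78 lay above those of ucr-2.1 (-1.24 and -1.60) and ucr-2.3 (-1.18 and -1.37). The small subunit gene ucr-11 was at -1.30.

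The nuclear subunit genes of complex IV had the lowest median of the complexes, at -1.22, and all 7 were lower in the IP. The gene cox-5B (WBGene00000371, chromosome I) had the lowest value of all 39 genes. It went from 431 and 463 CPM in the inputs to 150 and 126 CPM in the IPs, with a log2 fold change of -1.70 (SE 0.13, adjusted p = 1.2e-40). Even so, it ranked 993 from the lowest among the 14029 tested genes, so that 7.07% of them were lower still. The gene cox-5A was at -1.20, from 634 and 660 CPM to 312 and 256 CPM. The gene cox-6C was at -1.45, from 251 and 270 CPM to 99.9 and 90.1 CPM, and cox-6A was at -1.37, from 305 and 309 CPM to 128 and 110 CPM. The gene cox-6B was at -1.22, from 768 and 816 CPM to 365 and 316 CPM, and cox-7C was at -1.19. In each of these genes both IPs were far below both inputs. The gene cox-4 was set apart from these at -0.62 (SE 0.13, adjusted p = 2.92e-06), from 433 and 453 CPM in the inputs to 288 and 288 CPM in the IPs.

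The selected ATP synthase genes were the closest to one another, with log2 fold changes from -1.05 to -0.74. The α and β subunit genes atp-1 and atp-2, which form the catalytic head of the enzyme, had the highest CPM of all 39 genes. The gene atp-1 (WBGene00010419, chromosome I) had 1533 and 1599 CPM in the inputs and 826 and 745 CPM in the IPs, a log2 fold change of -0.996 (SE 0.16, adjusted p = 1.85e-09). The gene atp-2 had 1256 and 1251 CPM in the inputs and 747 and 654 CPM in the IPs, a log2 fold change of -0.84 (SE 0.15, adjusted p = 1.41e-07). The stalk subunit genes atp-5, atp-3 and atp-4 were at -1.05, -0.98 and -0.74. The SE of these values was 0.13 to 0.16, and differences between the genes were not tested.

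**Figure D2:**
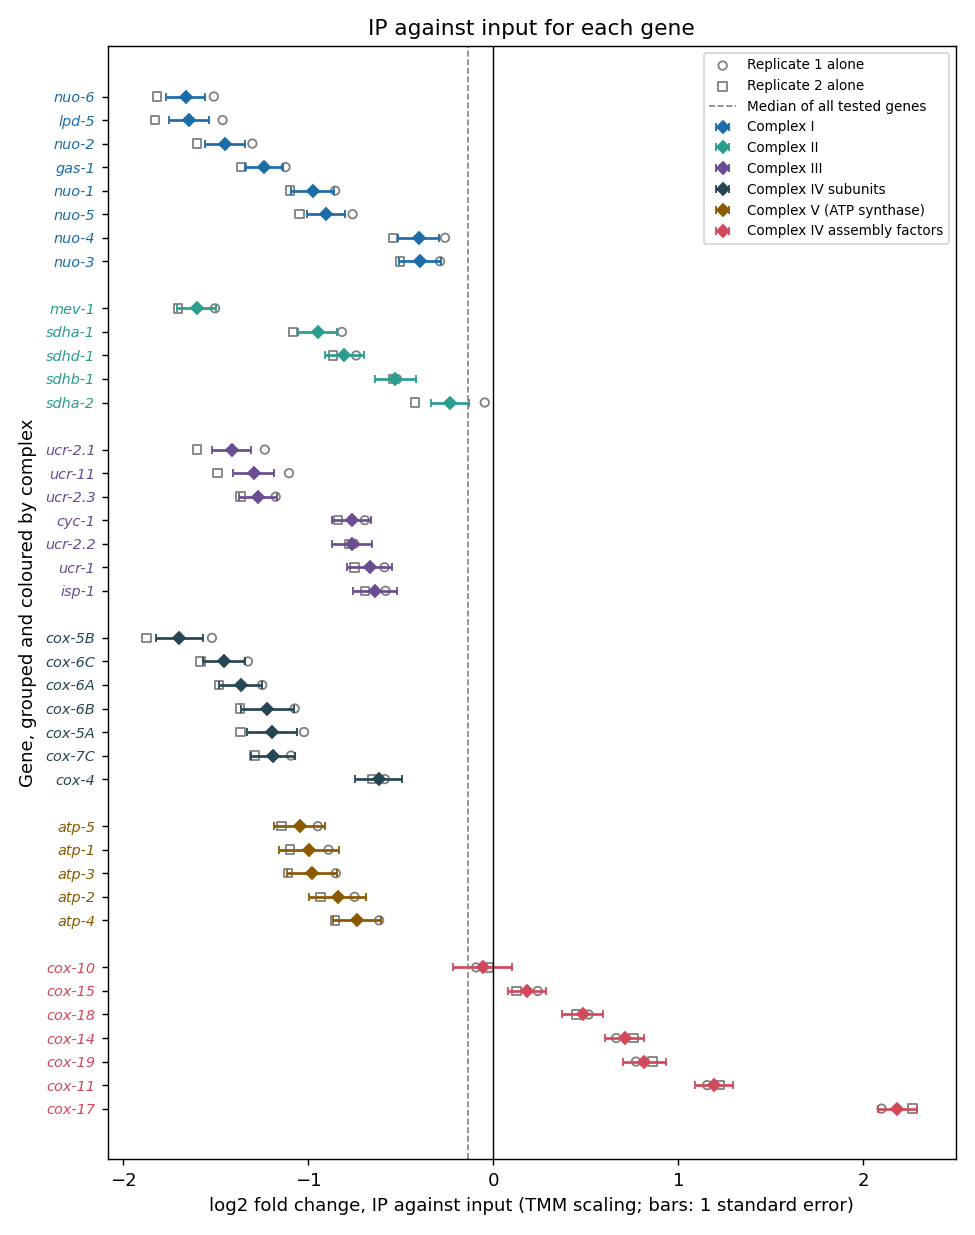
log2 fold change of IP against input for each of the 39 genes (edgeR, TMM scaling), with diamonds for the fit, bars of 1 standard error and grey symbols for the ratio within each replicate. The 32 subunit genes run from -1.70 to -0.23, and the 7 assembly factors from -0.06 to 2.18. The dashed line is the median of all tested genes, -0.14.

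The assembly factors of complex IV gave values that did not overlap with those of the 32 subunit genes selected by symbol. Some subunit genes outside the selection, described below, did fall within the range of the assembly factors. The log2 fold changes of the assembly factors ran from -0.06 to 2.18 with a median of 0.71, compared with a highest value of -0.23 among the 32 subunit genes. The gene cox-17 (WBGene00018240, chromosome III) encodes the copper chaperone that supplies the enzyme in the intermembrane space. Its inputs held 725 and 996 counts and its IPs 1996 and 2519 counts, or 15.2 and 19.1 CPM compared with 65.0 and 92.0 CPM. Its log2 fold change was 2.18 (SE 0.11, adjusted p = 8.67e-91), higher than that of 94.6% of all tested genes. Of the 39 genes it was the only one called higher with library size scaling alone.

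Other copper and insertion factors followed at smaller sizes. The gene cox-11, whose yeast and human counterparts act in copper delivery to the CuB site, went from 25.1 and 27.8 CPM in the inputs to 55.9 and 65.0 CPM in the IPs. Its log2 fold change was 1.19 (SE 0.10, adjusted p = 8.43e-30). The gene cox-19, related to the copper chaperones of the intermembrane space, went from 15.99 and 16.7 CPM to 27.3 and 30.2 CPM, with a log2 fold change of 0.82 (SE 0.12). For cox-14, which in yeast and humans acts with newly made COX1, 82.6 and 91.1 CPM compared with 131 and 154 CPM, and the log2 fold change was 0.71 (SE 0.10). For cox-18, a membrane insertion factor for COX2 in yeast and humans, 19.3 and 22.3 CPM compared with 27.5 and 30.5 CPM, and the log2 fold change was 0.48 (SE 0.11, adjusted p = 4.44e-05). The call of cox-18 was lost without IP replicate 2, at adjusted p = 0.0621.

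Both enzymes of the heme A pathway were the exceptions. The gene cox-10, for heme O synthase, was the least abundant of the 39, with 7.54 and 7.53 CPM in the inputs and 7.07 and 7.41 CPM in the IPs. Its log2 fold change was -0.06 (SE 0.16, adjusted p = 0.753). The gene cox-15, for heme A synthase, had 41.3 and 41.9 CPM in the inputs and 48.8 and 45.6 CPM in the IPs, with a log2 fold change of 0.18 (SE 0.10, adjusted p = 0.1). With RLE size factors cox-15 was called higher, at 0.27 (adjusted p = 0.00902).

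IP enrichment was also computed as the study defines it, as the difference between the quantile-normalized log2 values of IP and input in each replicate. This measure placed each of the 39 genes except cox-10 lower than TMM scaling did. The median log2 IP enrichment of the 39 genes was -1.54, from -1.47 in replicate 1 and -1.67 in replicate 2, compared with -0.11 for all tested genes. The subunit genes ranged from -2.41 ± 0.20 (SD, n = 2) for cox-5B to -0.76 ± 0.15 for sdha-2, and 30 of the 32 were below -1 in both replicates. The exceptions were sdha-2 and ucr-2.2, and for ucr-2.2 the replicates were at -1.13 and -0.995. The assembly factors had a median of 0.31. Among them cox-17 was at 1.91 ± 0.08, cox-11 at 0.85 ± 0.07, cox-19 at 0.69 ± 0.09, cox-18 at 0.31 ± 0.04, cox-10 at 0.18 ± 0.06, cox-14 at 0.05 ± 0.10 and cox-15 at -0.20 ± 0.01. The SD between replicates of a single gene had a median of 0.10 and a maximum of 0.30, for atp-2. Across the 39 genes, the values of the replicates had a Pearson r of 0.99, which is a description over genes that share the same libraries.

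Scaling decided the direction of the smaller values. With library size only, the median log2 fold change of all tested genes moved from -0.14 to -1.07. The 32 subunit genes then had a median of -1.92 and were all lower, while of the assembly factors only cox-17 was higher and 3 were lower, cox-10, cox-15 and cox-18. These scalings differ by 1 factor per library and so move all genes together. Quantile normalization does not, and by that measure the subunits had a median of -1.73 and the assembly factors one of 0.31, with all tested genes at -0.11.

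**Figure D3:**
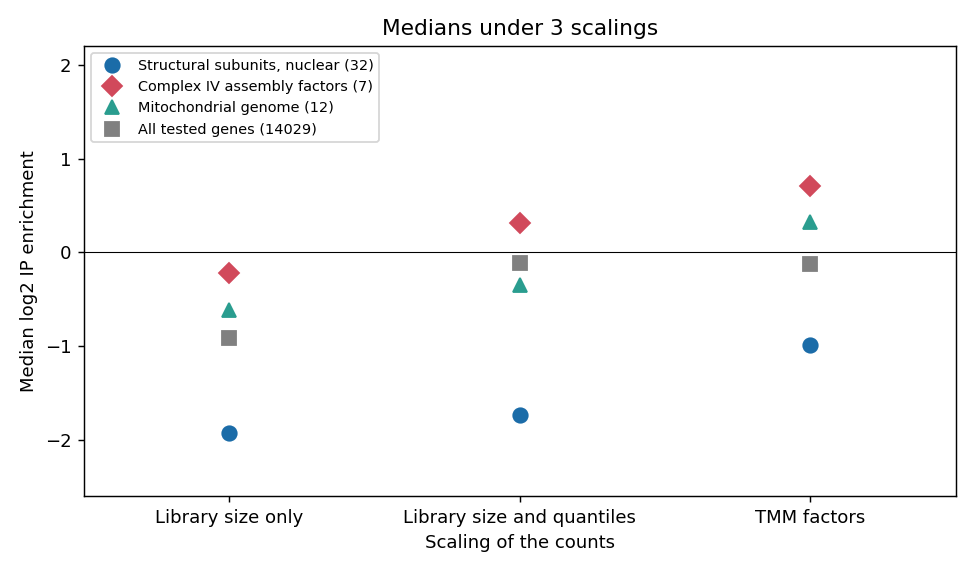
Median log2 IP enrichment of the subunit genes, the assembly factors, the genes of the mitochondrial genome and all tested genes under 3 scalings of the same counts. The subunit median stays below that of all genes, at -1.92, -1.73 and -0.99, and the assembly factor median stays above it, at -0.22, 0.31 and 0.71.

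Subunits and assembly factors also differed in abundance. Per length of gene model, the subunits of complex IV had a median input level of 654 CPM per kilobase and those of complex V 645, compared with 130 for complex I, 175 for complex II, 92.2 for complex III and 30.9 for the assembly factors. Over the 39 genes, log2 fold change and log2 input CPM had a Pearson r of -0.60 (Spearman rho -0.40). Without the 7 assembly factors r was 0.03 (rho 0.05, n = 32). These correlations are descriptions over genes that share 4 libraries. Only cox-14 lay within the input range of the subunits, and cox-15 lay just below it. The other assembly factors, at mean inputs of 7.54 to 26.4 CPM, had no subunit gene of similar level beside them. At 82.6 and 91.1 CPM in the inputs, cox-14 had a log2 fold change of 0.71. Near that level, nuo-6, at 87.9 and 88.0 CPM, had one of -1.66, and sdha-2, at 75.8 and 79.6 CPM, had one of -0.23. At 41.3 and 41.9 CPM cox-15 was at 0.18, whereas ucr-2.2, at 46.0 and 42.2 CPM, was at -0.76. The 3530 other tested genes within the input range of the subunits (44.1 to 1566 CPM) had a median log2 fold change of 0.31, and 32.4% of them were lower in the IP. That range is wide, and the most abundant genes were lower. In bins of log2 input CPM that start at 6, 8, 9 and 10, all tested genes had medians of 0.41, -0.43, -0.62 and -1.58. The last bin held 73 genes with a 75th percentile of -1.06. Its members atp-1 and atp-2, at -0.996 and -0.84, lay above that percentile. In the range of the assembly factors (7.54 to 86.9 CPM), the 5308 other genes had a median of 0.24, and 50.2% of them were higher. The share of 5 in 7 assembly factors should be read against this larger share.

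**Figure D4:**
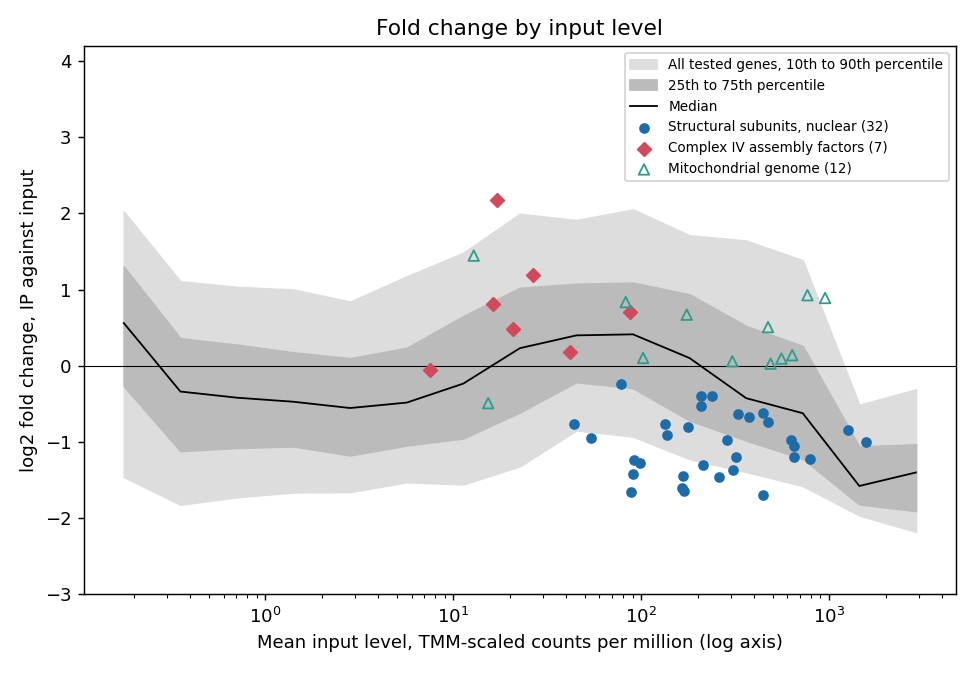
log2 fold change of IP against input plotted over mean input level in TMM-scaled CPM (log axis), with grey bands for all tested genes in bins of input level. The 32 subunit genes (circles) lie at -0.23 or below at every input level, the 7 assembly factors (diamonds) lie from -0.06 to 2.18, and 11 of the 12 genes of the mitochondrial genome (triangles) lie above 0.

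The subunits encoded by the mitochondrial genome belong to the same complexes as the nuclear subunits, and their values differed. All 12 were in the tables and passed the filter, and their names were taken from RefSeq by position on the same assembly, WBcel235. In the IP 6 were higher, 1 was lower and 5 did not pass the test, with a median log2 fold change of 0.32. Their share of all counts was 0.620% and 0.641% for the inputs, compared with 0.482% and 0.470% for the IPs. The highest counts belonged to the complex IV gene COX2, with 876 and 1027 CPM in the inputs and 1614 and 1917 CPM in the IPs, and a log2 fold change of 0.89 (SE 0.17). For COX3, also of complex IV, the log2 fold change was 0.93 (SE 0.16). The third core subunit gene of complex IV, COX1, had 576 and 540 CPM in the inputs and 604 and 587 CPM in the IPs, a log2 fold change of 0.10 (SE 0.14, adjusted p = 0.554). For comparison, the 7 nuclear subunit genes of the same enzyme were between -1.70 and -0.62.

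In complex III, the cytochrome b gene CYTB had a log2 fold change of 0.51 (SE 0.14, adjusted p = 0.000554), whereas the nuclear genes of that complex were between -1.42 and -0.64. In complex V, ATP6 had 245 and 366 CPM in the inputs and 325 and 300 CPM in the IPs, so that its groups overlapped, at a log2 fold change of 0.06. The complex I genes of the mitochondrial genome ran from ND2 at -0.49 to ND4L at 1.45. The value of ND4L came from 13.8 and 11.9 CPM in the inputs and 23.4 and 51.1 CPM in the IPs, which lay far apart. These directions depend on the scaling, since with library size only 1 of the 12 genes was higher and 7 were lower. By quantile-normalized IP enrichment their median was -0.35, below that of all tested genes and above that of the nuclear subunits.

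Other nuclear genes of the chain, which the symbols did not capture, were mostly lower as well. Those compared were hpo-18 and the genes with symbols that start with nduf-, asb-, asg- or cyc-2., which may not be all that remain. Of these 13 genes, 12 were lower in the IP, none was higher and the median log2 fold change was -1.07. The lowest were the complex I gene nduf-6 at -1.74 and the ATP synthase ε subunit gene hpo-18 at -1.73, and nduf-2.2 was the gene that did not pass the test, at 0.02 (adjusted p = 0.851). The cytochrome c genes cyc-2.1 and cyc-2.2 were at -1.07 and -1.30, although the input level of cyc-2.2 was only 6.91 and 5.44 CPM. The ATP synthase paralogs asb-1 and asb-2 were at -1.43 and -0.75, and asg-1 and asg-2 at -1.56 and -0.89.

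Lists of other mitochondrial functions lay between these groups. Of 14 genes of the tricarboxylic acid cycle, 13 were lower and 1 was higher (ogdh-1, at 0.30, a call lost with no replicate block at adjusted p = 0.0567), and the median was -0.78. Of 8 genes for ubiquinone synthesis, 4 were higher and 1 was lower (clk-1, at -0.72), the median was 0.26 and coq-1 was the highest at 1.74. With library size only these became 1 higher and 5 lower. Of 13 genes for mitochondrial protein import, 2 were higher and 7 were lower, with a median of -0.29. Of 69 genes for the mitochondrial ribosome, 18 were higher and 35 were lower, with a median of -0.24. All 75 tested genes of the cytosolic ribosome were lower, with a median of -1.58, so that the median of the nuclear subunits, -0.99, lay between those of the cytosolic and the mitochondrial ribosome.

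**Figure D5:**
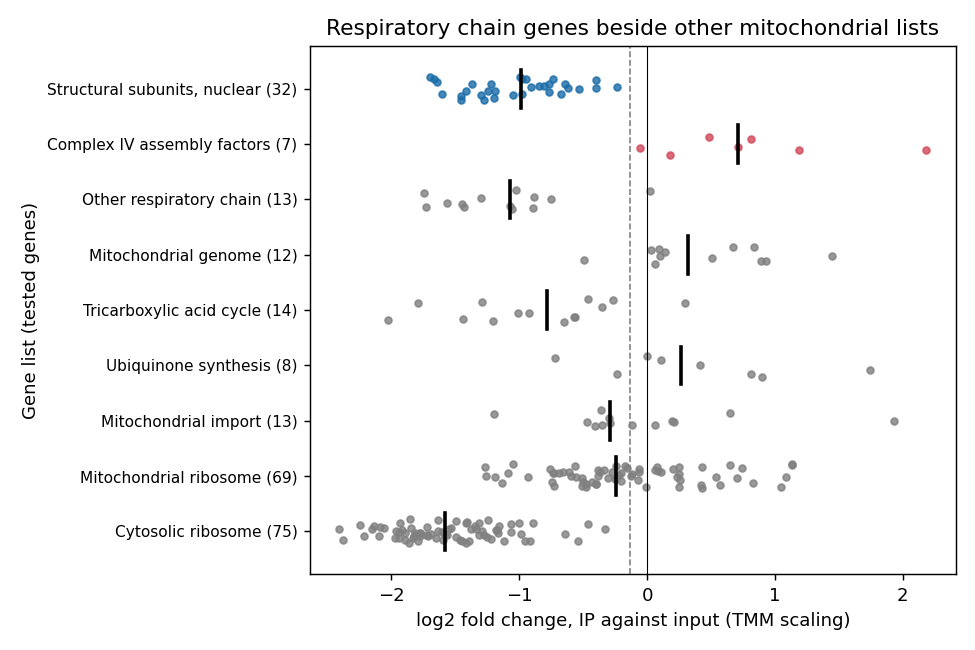
log2 fold change of IP against input (TMM scaling) for the tested genes of each list, 1 point per gene, with a bar at the median of the list and a dashed line at the median of all tested genes. The medians are -0.99 for the nuclear subunits, 0.71 for the assembly factors, -1.07 for other genes of the chain, 0.32 for the mitochondrial genome and -1.58 for the cytosolic ribosome.

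Tissue markers moved between input and IP as well. Summed over 6 body wall muscle markers, the level was 1729 and 1511 CPM in the inputs and 649 and 532 CPM in the IPs, and 5 of the 6 were lower. All 10 intestine markers were lower, with sums of 3323 and 2569 CPM compared with 1682 and 1396 CPM. Of 8 germline and oocyte markers, 7 were higher and 1 was lower (glh-1), with sums of 3227 and 3507 CPM compared with 10387 and 10794 CPM. Of the 5 hypodermis markers 4 were tested, of which 1 was higher and none was lower (sums of 800 and 726 CPM compared with 940 and 951 CPM), and of 5 neuron markers 2 were higher and 2 were lower (203 and 216 CPM compared with 255 and 261 CPM). The 34 sperm genes summed to 46.3 and 35.3 CPM compared with 16.9 and 11.9 CPM, 11 of them had no count in any library, and 13 of the 15 tested were lower. None of the other markers was at 0 in all libraries. The part of these tissue differences in the values of the respiratory chain genes was not tested. Input and IP of a replicate came from the same worms, and the level of an mRNA in the input does not tell many cells from much mRNA per cell.

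Gene structure was also compared. The annotated 3′-UTR had a median of 161 bases for the subunit genes and 152 bases for the assembly factors, and ranged up to 578 bases for cyc-1. The median was 125 bases for all tested genes. It was 175 bases for the other genes in the input range of the subunits, and 151 bases in that of the assembly factors. Gene models without a 3′-UTR entered these medians as 0 bases. Over the 38 genes with an annotated 3′-UTR, its log2 length and the log2 fold change had a Pearson r of 0.05 (rho 0.15). Over the 31 subunit genes among them r was 0.24 (rho 0.25), and over all tested genes with a 3′-UTR it was 0.16 (rho 0.18). The coding length had a median of 744 bases for the subunits and 780 bases for the assembly factors. With log2 coding length, r was -0.12 (rho 0.09) over the 39 genes, 0.38 (rho 0.35) over the 32 subunit genes and 0.05 (rho 0.05) over all tested genes. Coding genes in the tables overlap 8 of the 39 genes on the opposite strand in this annotation, among them gas-1, cyc-1, nuo-6 and cox-15. They overlap 2 on the same strand, atp-4 and cox-6B, whose values may stay uncertain even with stranded counting. Overlap was taken from gene start to gene end, introns included, and exons were not compared. The libraries are stranded, but the sources used here do not say whether strand was used in counting.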

How the data were processed

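RIP-seq read counts were analysed for 2 input and 2 IP libraries. The authors deposited whole-number counts per gene, without normalization, on assembly ce10 with WormBase WS220 gene models. The sources used here give neither aligner nor counter. The log2 values the authors deposited were scaled by library size, log2-transformed with a pseudocount of 8 and quantile-normalized, and repeating these steps gave all 81568 values to within 1e-06. Symbols matched 19182 of the 20392 gene identifiers.

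Counts were tested with edgeR 4.0.16 in R 4.3.3 (TMM scaling, filterByExpr, quasi-likelihood test, Benjamini-Hochberg adjustment over all tested genes). Replicate was a block, because the study's methods subtract each input from its own IP. The difference between replicates in the input and in the IP had r = 0.29 across genes. With the block, 1 residual degree of freedom remained and the spread was pooled over all genes. The inputs had TMM factors of 1.43 and 1.34, the IPs 0.779 and 0.672. Scripts were tested on simulated counts. Alternatives were DESeq2 1.42.0, no block, RLE size factors, library size only, other filters, each library left out, and other scalings and pseudocounts for IP enrichment.

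All 39 genes were named, with full values by a rule: the highest and lowest 4, those against the majority of their complex, core subunits and paralogs. Genes named from the other lists were chosen after their values were seen. The members and lists were chosen with earlier results of these data known. Genes of the mitochondrial genome were taken by chromosome, since the listed symbols matched none. cox-16 was not analysed here. Coordinates are not given, since WBcel235 is later than ce10.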

Additional observations from a re-analysis of the deposited data

How the results depend on the processing

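The number of genes lower in the IP stayed between 29 and 35 over all alternatives, and the number higher between 4 and 6, except with library size only, where it was 1 in place of 5. Leaving out 1 library gave 29 to 32 lower genes, 4 to 5 higher genes and a median log2 fold change of -1.02 to -0.83. With library size only this median was -1.84. The median log2 IP enrichment was -1.83 with library size only and -0.90 with TMM factors, and -1.67 to -1.47 with 1 replicate left out. Changes of sign were found in assembly factors alone. With library size only, the log2 fold change was -0.22 for cox-14, -0.75 for cox-15, -0.45 for cox-18 and -0.12 for cox-19, and the log2 IP enrichment was -0.96 for cox-10, -0.22 for cox-14, -0.45 for cox-18 and -0.12 for cox-19. The log2 fold change of cox-10 was 0.0260 with DESeq2 and 0.0259 with RLE size factors. With TMM factors the IP enrichment was -0.0565 for cox-10 and 0.18 for cox-15, and without replicate 2 and without replicate 1 it was -0.0184 and 0.121 for cox-14. These shifts follow the scaling of all genes where the scaling is the alternative. With no replicate block, 31 genes were lower and 5 higher, and sdha-2 was the call lost (adjusted p = 0.124). With 2 replicates the adjusted p-values rest on a spread pooled over genes.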
